A study of Mus musculus with 182 samples.

Results

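Actin genes and the genes that control actin filaments were followed across single germinal centre B cells from mouse spleen. The 10 genes were Actb and Actg1, which encode the cytoplasmic beta and gamma actins, and 8 regulators: Pfn1, Cfl1, Coro1a, Nckap1l, Was, Vasp, Arpc2 and Arpc3. They are 10 of the 17034 gene symbols in the deposited table, and each was taken by its symbol over all 182 cells. They were chosen by measured values as well as by role, because Nckap1l and Vasp had stood out in an earlier ranking of these data along the axis from dark zone to light zone genes. The relations of Nckap1l and Vasp to Cxcr4 and Cd83 are therefore descriptions.

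All cells formed 1 group. The donors were C57BL/6 mice immunized in the peritoneal cavity with 100 μg NP(23)-KLH (the hapten NP on a carrier protein), 50% alum and 1 μg LPS, and spleens were collected on day 13. Magnetic depletion removed T cells, CD11c+ cells and IgD+ cells, and the sort then took B220+ cells with high Fas and high GL7. The sample labels add NP binding, whereas the design text names NP as a stain without a gate. Each cell gave 1 library on the Fluidigm C1 with SMARTer chemistry. No label ties a cell to an animal, so the 182 cells count as 1 biological sample, no test between cells was made, and every correlation below is a description.

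Actin monomers join into filaments that push the cell membrane forward and hold its shape. The Arp2/3 complex, of which Arpc2 and Arpc3 are subunits, starts new branches on existing filaments when it is switched on by WASP (the product of Was) or by the WAVE complex. Nckap1l encodes HEM1, the blood cell form of a core WAVE subunit that links the complex to the GTPase Rac. Profilin (Pfn1) feeds monomers to growing ends, cofilin (Cfl1) severs old filaments, coronin 1A (Coro1a) binds filaments and the Arp2/3 complex, and VASP speeds elongation. Germinal centre B cells depend on this machinery to crawl between the dark zone, where CXCR4-high cells divide, and the light zone, where CD83-high cells meet antigen and T cells.

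The deposited values are a normalized signal that is not on a log scale, and detection here means a value of 1 or more. It is not known whether the values are per transcript length, so levels are not compared between genes. The columns fell into 2 sets by their values: cells 1 to 96 (set 1) and cells 97 to 182 (set 2). Between cells of different sets, 0% of non-zero values were equal, against 66.89 to 84.67% between cells of the same set. Whether the sets are capture runs or animals is not stated, so every relation is given within each. A cell had a median of 1904 detected genes in set 1 (1873 to 1946) and 1690 in set 2 (995 to 1741), and the read depth of each cell is unknown. Each gene has a lowest value in each set, its floor. A value above the floor can still be under 1. The number of genes above their floor ran from 1904 to 4495 per cell in set 1 and from 980 to 5149 in set 2. The number of detected genes varied far less in most cells, so a value of 1 lies near a fixed rank within a cell. That rank differs between the sets, and detection is therefore not a measure of presence or absence.

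The cells carried B cell transcripts, with Cd79b in 180 and Ms4a1 in 176 of 182 cells. Among 12 germinal centre B cell markers, 8 were detected in over 50% of cells, with Bcl6 in 106 cells. Fas (91 cells), Rgs13 (86), S1pr2 (82) and Pax5 (61) did not pass that share. Of the markers of T cells, Cd3d and Cd4 were detected in 0 cells and Il7r in 12. Of the myeloid markers, Cst3 was detected in 68 cells, Lyz2 in 15 and Tyrobp in 9, and the stromal collagens Col1a1 and Col3a1 in 0. In all, 21 cells held at least 2 markers of another cell type, 18 of them at least 2 of the 9 myeloid markers. The summed myeloid markers ran from 0.231 to 4554 over all cells with a median of 0.396. Nckap1l was detected in 11 of those 21 cells and in 34.2% of the rest, and Actg1 in 11 of 21 and in 50.9%. The counts of pairs and of members with zone and division measures were also taken without those cells and are given where they differ, and the part of those cells in the other relations was not tested.

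Actb was found in every cell. Actb lies on chromosome 5 (GENCODE M21 on mm10, chr5:142903115-142906754, minus strand) and was detected in 182 of 182 cells (100%, exact 95% interval 98.0 to 100%, which covers counting error over cells only). Its lowest, median and highest values were 378, 8347 and 60610 in set 1 and 115, 7881 and 32837 in set 2, so the sets overlapped over most of their range. Within a cell the rank of Actb from the top was 5 at the median, 1 at best and 369 at worst. The upper quartile of Actb was 3.11 times the lower quartile in set 1 and 3.69 times in set 2. Cells of a set share many of their values gene by gene, at the floor and above it, here called a shared ladder of values. The shared values differ between genes: in set 1, Actb repeated 25350 and 12060 while Rn45s repeated 49289 and 21956. Actb took 26 distinct values in set 1 and 27 in set 2.

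Actg1, on chromosome 11 (chr11:120345690-120348542, minus strand), was detected in 93 of 182 cells (51.1%, 43.6 to 58.6%), in 52 of 96 cells of set 1 and 41 of 86 of set 2. Its lowest, median and highest values were 0, 1.27 and 624 in set 1 and 0.0986, 0.387 and 587 in set 2. Where detected, its median was 14.8 and 13.4, so about equal in both sets. Every cell with Actg1 also had Actb, and 89 cells had Actb alone. The muscle actins were rare: Acta2 was detected in 8 of 182 cells, Actc1 in 3, Actg2 in 2 and Acta1 in 1. The Actb and Actg1 transcripts are 87.8% identical over 1186 aligned bases, and 11 annotated pseudogenes match Actg1 and 1 matches Actb at 90% identity or more over at least 200 bases. None of these copies has a row in the table and the handling of shared reads is not stated, so the split between both actins is uncertain.

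The 2 genes that handle actin monomers and severing were found in nearly all cells. Pfn1 (chr11:70651850-70654644, minus strand) was detected in 173 of 182 cells (95.1%, 90.8 to 97.7%). Its lowest, median and highest values were 0, 295 and 6751 in set 1 and 0.467, 137 and 7849 in set 2. Pfn1 therefore ran over its full range in both sets, from its floor upwards. Cfl1 (chr19:5490455-5495201, plus strand) was detected in 179 of 182 cells (98.4%, 95.3 to 99.7%), with 0, 214 and 2780 in set 1 and 1.53, 126 and 2934 in set 2. The floor of Cfl1 in set 2 is itself above 1, so all 86 cells of that set count as detected, and 92.9% of all cells stood above the floor. Cfl1 has 4 annotated pseudogene copies by the same criterion, none with a row, so its level is uncertain too.

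Promoter sequences are shown for Actg1, Pfn1 and Cfl1, the genes with a RefSeq entry among the 4 in the counted pairs described further on, and no relation between these sequences and the values was tested. The bases before the RefSeq start of each gene (build GRCm38.p6) are printed 5′ to 3′ on the gene's strand. Capitals mark matches on either strand to 3 motifs: the CArG box, which the serum response factor SRF binds in many actin genes, GGGCGG, the core bound by Sp1, and CCAAT.
Actg1: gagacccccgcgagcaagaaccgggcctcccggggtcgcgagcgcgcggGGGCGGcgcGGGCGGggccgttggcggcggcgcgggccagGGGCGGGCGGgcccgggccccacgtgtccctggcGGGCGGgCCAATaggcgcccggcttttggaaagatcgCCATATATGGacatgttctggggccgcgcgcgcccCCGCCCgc
Pfn1: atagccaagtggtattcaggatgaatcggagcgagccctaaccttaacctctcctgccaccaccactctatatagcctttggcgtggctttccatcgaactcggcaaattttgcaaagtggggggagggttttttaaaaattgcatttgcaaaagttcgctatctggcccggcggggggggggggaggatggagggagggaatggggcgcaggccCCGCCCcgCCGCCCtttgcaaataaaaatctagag
Cfl1: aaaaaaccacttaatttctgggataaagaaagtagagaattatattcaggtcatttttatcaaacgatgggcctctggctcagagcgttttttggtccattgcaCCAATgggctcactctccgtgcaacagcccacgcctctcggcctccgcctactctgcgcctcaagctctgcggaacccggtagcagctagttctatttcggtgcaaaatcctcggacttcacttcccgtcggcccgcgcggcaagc
The stretches are chr11:120348543-120348745 (minus strand; the 3′ end of the window is left out where GENCODE places the gene), chr11:70654651-70654900 (minus strand) and chr19:5490205-5490454 (plus strand). Actg1 held 1 CArG box, 90 bases before its start, with 6 GGGCGG and 1 CCAAT, and 1 pair of the GGGCGG matches overlaps. Pfn1 held 2 GGGCGG, and Cfl1 held 1 CCAAT. RefSeq promoters were matched for 8 of the 10 genes, not for Actb and Nckap1l. In the windows of 250 bases, 1 gene held a CArG box, 4 held GGGCGG and 2 held CCAAT. Over 32851 RefSeq promoters of the same length, the CArG box was in 1.47%, GGGCGG in 32.7% and CCAAT in 33.8%.

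Coro1a (chr7:126699773-126707787, minus strand), which marks blood cells, was detected in 181 of 182 cells (99.5%, 97.0 to 100.0%). Its lowest, median and highest values were 2.15, 537 and 10330 in set 1 and 0.912, 269 and 4874 in set 2. The related coronin Coro1b was detected in 65 cells, all of which also had Coro1a.

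The genes that start branched filaments were detected less evenly. Arpc2 (chr1:74236084-74268209, plus strand) was detected in 139 of 182 cells (76.4%, 69.5 to 82.3%). Of all members, Arpc2 differed most between the sets in share, at 85 of 96 cells (88.5%) in set 1 and 54 of 86 (62.8%) in set 2. At a value of 5 the shares of Arpc2 were 74.0% in set 1 and 57.0% in set 2, and above the floor 93.8% and 64.0%. A value of 1 falls at a different rank in each set, and its part in the difference in Arpc2 was not tested. Its lowest, median and highest values were 0, 35.7 and 3281 in set 1 and 0.688, 6.04 and 5529 in set 2. Arpc3 (chr5:122391878-122414184, plus strand) was at the other end, in 27 of 182 cells (14.8%, 10.0 to 20.8%), 19 of set 1 and 8 of set 2, reaching 248 and 351. Arpc2 and Arpc3 are subunits of the same complex. Of the 27 cells with Arpc3, 24 also held Arpc2, beside 139 of all 182 cells with Arpc2. This count pools the sets, and 19 of the 27 cells lie in set 1, where Arpc2 was more frequent, so these shares are not matched. The rho of Arpc2 with Arpc3 was −0.04 in set 1 and 0.00 in set 2. Arpc3 stood above its floor in 15.4% of cells, so this rho rests on few cells.

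Nckap1l (chr15:103453794-103498810, plus strand) was detected in 66 of 182 cells (36.3%, 29.3 to 43.7%), 37 of set 1 and 29 of set 2. Its lowest, median and highest values were 0, 0.308 and 1941 in set 1 and 0.0505, 0.0505 and 569 in set 2. Where detected, its median was 7.00 and 3.98, so most positive cells were low and a few were very high. Its share depended on the threshold: 18.7% of cells reached a value of 5, and 48.9% stood above the floor.

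Was (chrX:8081453-8090498, minus strand) was detected in 44 of 182 cells (24.2%, 18.1 to 31.1%), 29 of set 1 and 15 of set 2, with highest values of 301 and 2640. Vasp (chr7:19256929-19271817, minus strand) was detected in 32 cells (17.6%, 12.3 to 23.9%), 21 of set 1 and 11 of set 2, with highest values of 154 and 579. The median cell of either set stood at the floor for Was, Vasp and Arpc3. In order of share the members were Actb, Coro1a, Cfl1, Pfn1, Arpc2, Actg1, Nckap1l, Was, Vasp and Arpc3. All shares come from the same 182 cells, so their intervals do not compare the genes, and no difference between members was tested. As background, the median gene of the table was detected in 3.85% of cells and 645 of 17034 genes (3.79%) in over 50% of cells, a level that 6 of the 10 members passed. A cell held a median of 6 of the 10 members (3 to 10), and 1 cell held all 10.

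**Figure D1:**
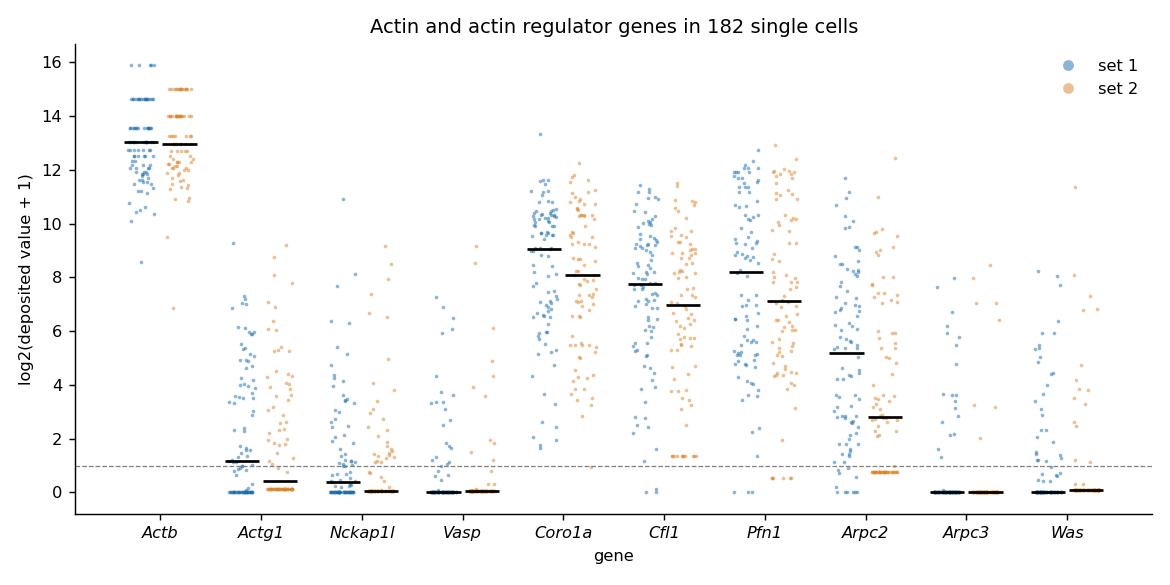
Level of each of the 10 genes as log2(deposited value + 1), 1 point per cell, for set 1 (96 cells) and set 2 (86 cells); bars are medians and the dashed line is the detection value of 1. Actb lies above the line in all 182 cells, Coro1a, Cfl1 and Pfn1 in nearly all, and for Was, Vasp and Arpc3 most cells stand at the floor.

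The WAVE complex has 5 positions, and at 2 of them 1 form was detected in far more cells than its relative. Nckap1l was detected in 66 cells against 4 for its relative Nckap1, with 1 cell holding both. Cyfip2, the Rac-binding partner of Nckap1l, was detected in 145 cells (79.7%) against 17 for Cyfip1. Wasf2, the WAVE subunit that activates Arp2/3, was detected in 80 cells, Brk1 in 81, Abi3 in 58, Abi1 in 49 and Abi2 in 5. The shares of Abi3 and Abi1 come from the same cells and were not tested against each other, and Wasf1 and Wasf3 were not analysed here. A median cell held 3 of the 5 positions, and 4 cells held all 5. The rho of Nckap1l with its partners was low. With Cyfip2 it was 0.06 in set 1 and 0.02 in set 2, with Wasf2 −0.09 and 0.00, with Brk1 0.06 and 0.08, and with Abi1 0.22 and 0.10. Nckap1l stood above its floor in 48.9% of cells and was detected together with Wasf2 in 26 cells and with Abi1 in 20. These values therefore rest on few cells and do not show that the genes are unrelated.

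The Arp2/3 complex has 7 positions and was more completely detected. Actr2, an actin-related core subunit, was detected in 163 cells (89.6%), Arpc5l in 158, Arpc4 in 126, Arpc5 in 122, Arpc1b in 110 and Actr3 in 101. Arpc1b, the form typical of blood cells, exceeded Arpc1a (22 cells), while both Arpc5 forms were common, with 101 cells holding both. A median cell held 5 of the 7 positions, 10 cells held all 7, and Arpc3 was the position detected in fewest cells. Neither Arpc2 nor Arpc3 reached a rho of 0.2 in both sets with Actr2, Actr3, Arpc1b, Arpc4, Arpc5 or Arpc5l. The nearest was Arpc2 with Actr3, at 0.18 and 0.15. Arpc3 had 0.30 and 0.11 with Arpc5, and −0.198 and −0.12 with Arpc5l. Arpc3 stood above its floor in 15.4% of cells, so its values rest on few cells and do not show that the subunits are unrelated.

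**Figure D2:**
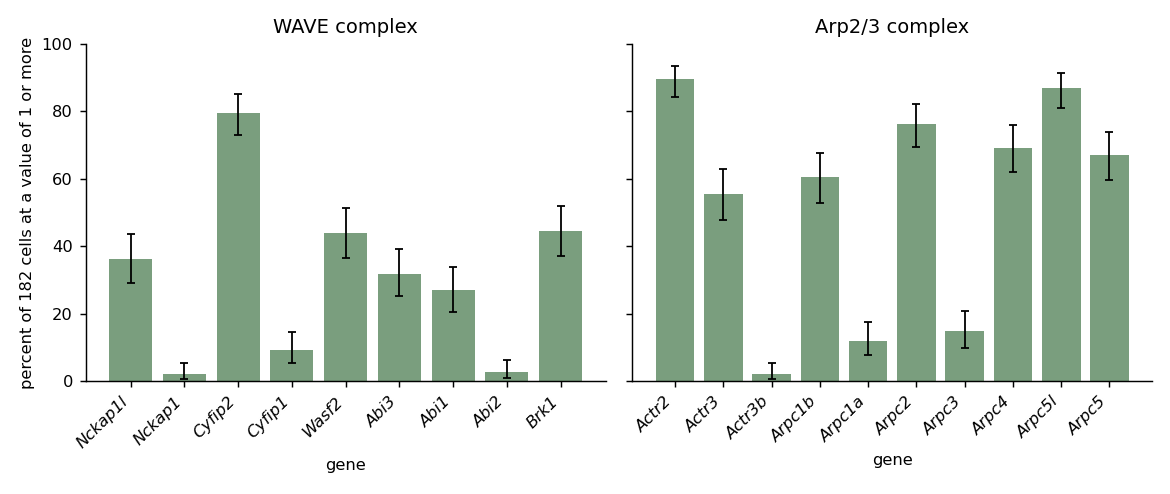
Percent of the 182 cells in which each gene of the WAVE complex (left) and the Arp2/3 complex (right) was detected at a value of 1 or more; error bars are exact 95% binomial intervals over cells. Nckap1l at 36.3% stands beside Nckap1 with 4 of 182 cells, and Arpc2 at 76.4% beside Arpc3 at 14.8%.

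Pairs of members were compared by Spearman's rho across cells, and a relation is counted when rho has 1 sign and is 0.2 or more in size within both sets. The cells share the same library chemistry, and the cells of a set share a ladder of values, so rho carries whatever those impose. Of 45 pairs, 3 were counted, all positive: Actb with Pfn1, Actb with Actg1, and Cfl1 with Pfn1. Among all pairs of the genes found in 10% of cells or more, 0.691% were positive by this rule. For genes found in 80% of cells or more the background was 6.46%, and of the 6 pairs among Actb, Coro1a, Cfl1 and Pfn1, which belong to that class, 2 were counted. The median rho of the 45 pairs was 0.11 in set 1 and 0.06 in set 2, beside 0.01 and 0.02 over all gene pairs, and 27 pairs were positive in both sets against 5 negative in both. Of all gene pairs, 31.7% were positive and 21.6% negative in both.

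Actb and Pfn1 rose and fell together across cells more closely than any other pair of members, with a rho of 0.51 in set 1 and 0.49 in set 2 (Pearson's r of log2(value + 1) 0.48 and 0.50). Without the 2 cells of each set farthest from the median Actb, r was 0.48 in both. Actb with Actg1 had 0.41 and 0.20, at the edge of the rule in set 2, with r of 0.38 and 0.12, by which it would not be counted. Cfl1 with Pfn1 had 0.35 and 0.26. Just outside the rule stood Actb with Cfl1, at 0.34 and 0.196.

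The remaining members were weakly related to these. Coro1a, though as frequent as Cfl1, had 0.22 and 0.08 with Actb and 0.26 and 0.04 with Pfn1. The rho of Was with Pfn1 was −0.28 in set 1 and −0.00 in set 2, while r was −0.29 and −0.21, by which this pair would be counted as negative. Its rho with Actb was −0.22 and −0.04. Nckap1l and Vasp had 0.26 in set 1 and −0.10 in set 2. The difference between the sets was not tested in any of these. Vasp with Arpc3 shows what pooling does: the rho was 0.30 over all cells and 0.08 and −0.07 within the sets.

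**Figure D3:**
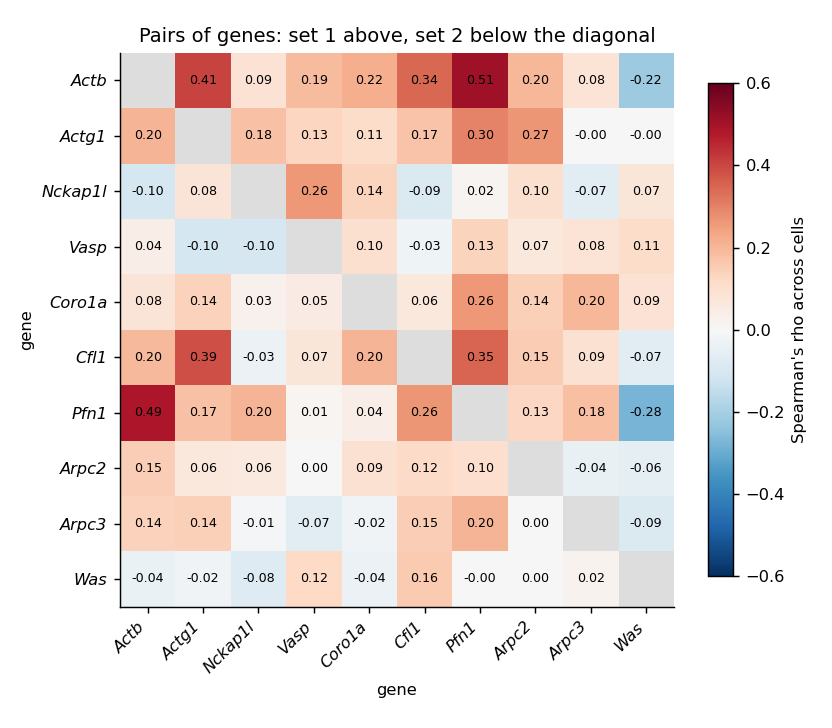
Spearman's rho for each of the 45 pairs of genes across cells, with set 1 (n = 96) above the diagonal and set 2 (n = 86) below it. The Actb and Pfn1 cell is darkest on both sides (0.51 and 0.49), and most other cells are pale.

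Cells with more Actb, Pfn1 and Cfl1 were also cells with more genes above their floor. For Actb the rho with that number was 0.24 in set 1 and 0.43 in set 2, for Cfl1 0.30 and 0.25, for Pfn1 0.33 and 0.43, and for Arpc3 0.22 and 0.20, beside a median over all genes of 0.10 and 0.14. With the number of genes held constant (a partial rho), Actb with Pfn1 was 0.47 and 0.37, Actb with Actg1 0.39 and 0.17, and Cfl1 with Pfn1 0.28 and 0.18, so 1 of the 3 pairs was still counted. Without the 21 cells holding markers of other cell types, 7 pairs were counted and the 3 named here were among them.

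The genes most opposed to Actb were Rpsa, a ribosomal protein gene (rho −0.67 and −0.66), Lars2, a mitochondrial leucyl-tRNA synthetase (−0.65 and −0.62), and Rn45s, the ribosomal RNA precursor (−0.57 and −0.58). Rn45s was chosen for a closer look after this ranking was seen. It was detected in all 182 cells, at 1290, 21956 and 49289 (lowest, median and highest) in set 1 and at 528, 18758 and 39048 in set 2, so Actb and Rn45s were both among the highest values of a cell. Of the 10 members, 4 were counted as opposed to Rn45s, beside a background of 5.77% of genes. These were Actb, Actg1 (−0.41 and −0.36), Pfn1 (−0.48 and −0.30) and Cfl1 (−0.22 and −0.40), the same 4 that form the counted pairs. Rn45s was picked by its relation to Actb, so the place of Actb among the 4 was set by that choice. Actg1 and Pfn1 are themselves counted with Actb, so the 5.77% is not a matched comparison and the 4 are a description. With genes above floor held constant, Cfl1 (−0.16 and −0.35) and Pfn1 (−0.45 and −0.198) were no longer counted. Rn45s itself moved with Lars2 (0.71 and 0.66) and Rpsa (0.63 and 0.71). Was stood apart, at 0.34 and 0.12 with Rn45s.

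With Rn45s held constant, Actb with Pfn1 was 0.33 and 0.40, Actb with Actg1 0.23 and −0.00, and Cfl1 with Pfn1 0.29 and 0.16. Of the 3 pairs, only Actb with Pfn1 was then counted. The part of ribosomal RNA content or of the shared ladder in these relations was not tested.

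**Figure D4:**
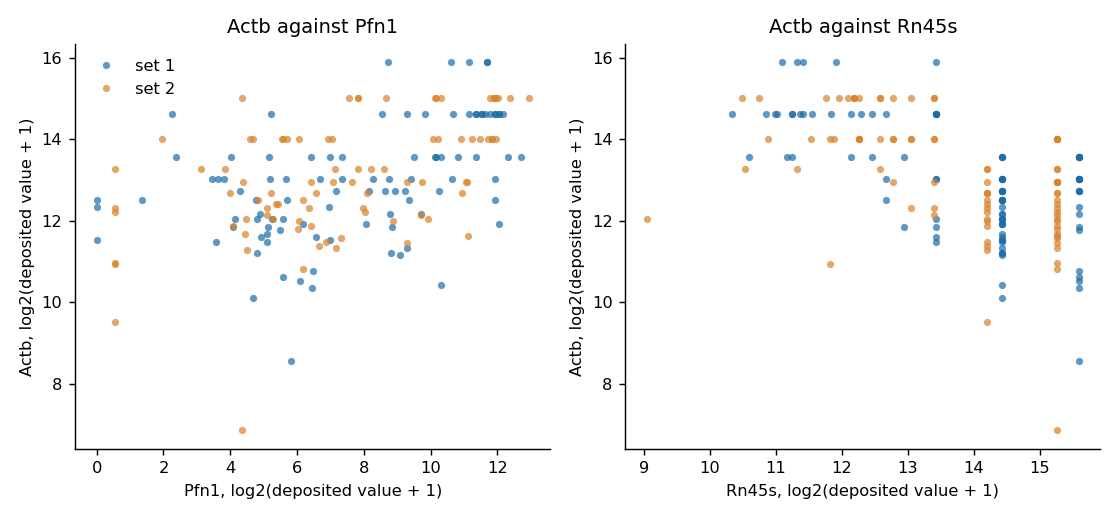
Actb against Pfn1 (left) and against Rn45s (right) in single cells, both axes log2(deposited value + 1), by set. Actb rises with Pfn1 (rho 0.51 and 0.49) and falls with Rn45s (−0.57 and −0.58), and the horizontal and vertical rows of points are values of a gene that many cells of a set share.

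Cxcr4, the chemokine receptor of dark zone cells, and Cd83, a surface protein of light zone cells, were each detected in about as many cells, 87 and 88 of 182. Both were found in 35 cells, and their own rho was −0.33 in set 1 and 0.06 in set 2. No member was counted with Cxcr4 (0 of 10, background 0.240%) or with Cd83 (0 of 10, background 0.277%). With backgrounds this low, a count of 0 of 10 says little and does not show that the members lack a zone relation. For Cxcr4 all 10 members lay between −0.13 and 0.11 in both sets. The actin genes themselves were close to 0 with both: Actb had 0.03 and −0.05 with Cxcr4 and −0.16 and −0.09 with Cd83.

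Vasp came nearest to Cd83, at 0.27 in set 1 and 0.18 in set 2. Vasp was detected in 24 of 88 cells with Cd83 (27.3%, 18.3 to 37.8%) and in 8 of 94 cells without it (8.51%, 3.75 to 16.1%). The same direction held in both sets, at 15 of 48 against 6 of 48 cells in set 1 and 9 of 40 against 2 of 46 in set 2. With Cxcr4 there was no such gap, since Vasp was found in 16 of 87 cells with it and 16 of 95 without. Nckap1l had 0.12 and 0.25 with Cd83 and −0.12 and −0.07 with Cxcr4. It was detected in 35 of 88 cells with Cd83 and 31 of 94 without. By set these were 19 of 48 against 18 of 48 in set 1 and 16 of 40 against 13 of 46 in set 2. The pooled intervals overlap, and the difference in share was not tested. Both genes were picked along the zone axis, so these values describe that choice. Was had 0.23 with Cd83 in set 1 and −0.05 in set 2.

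Division was read from Mki67 and Top2a, from 39 S phase genes and from 53 G2/M genes, each phase as a mean z-score. Mki67 and Top2a are themselves among the 53 G2/M genes, so these readings are not independent. With Mki67, a marker of cycling cells detected in 152 cells, 8 of 10 members were negative in both sets, as were 28.9% of all genes. Of these, 1 was counted, beside a background of 1.15% of genes. That 1 was Actb, at −0.20 and −0.27, and the median member stood at −0.16 and −0.13 beside 0.02 and −0.04 over all genes. With Top2a, the topoisomerase of chromosome condensation, 7 were negative in both sets, as were 22.5% of all genes. Of these, 1 was counted, Pfn1 at −0.21 and −0.27, beside a background of 0.462%. Given Rn45s, Actb with Mki67 was 0.01 and −0.12 and Pfn1 with Top2a −0.14 and −0.23, and neither was counted. Without the 21 cells with other markers they were −0.13 and −0.30, and −0.15 and −0.24, and again neither was counted.

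No member was counted with the S phase score (0 of 10, background 3.20%) or the G2/M score (0 of 10, background 3.83%). At these backgrounds too, 0 of 10 says little. With S phase genes 6 members were negative and 1 positive in both sets, beside 24.1% and 35.3% of all genes, and with G2/M genes 4 were negative and 3 positive, beside 17.9% and 42.4%. Actg1 came nearest for S phase, at −0.26 and −0.19. It was detected in 72 of 152 cells with Mki67 (47.4%, 39.2 to 55.6%) against 21 of 30 without (70.0%, 50.6 to 85.3%). The order was the same in set 1 (41 of 81 against 11 of 15) and in set 2 (31 of 71 against 10 of 15). The pooled intervals overlap, and the difference in share was not tested. Nckap1l had the most negative value of any member in 1 set, −0.42 with G2/M genes and −0.42 with Mki67 in set 1, but only −0.11 and −0.07 in set 2. In set 1 it was detected in 27 of 81 cells with Mki67 and 10 of 15 without, and in set 2 in 26 of 71 with and 3 of 15 without, the opposite order. The difference between the sets was not tested. Was was the 1 member positive in both sets with S phase genes, at 0.17 and 0.15, and it had 0.20 and 0.10 with G2/M genes. It was detected in 41 of 152 cells with Mki67 (27.0%, 20.1 to 34.8%) and 3 of 30 without (10.0%, 2.11 to 26.5%). The order was the same in set 1 (27 of 81 against 2 of 15) and in set 2 (14 of 71 against 1 of 15). These pooled intervals overlap too, and the difference was not tested.

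**Figure D5:**
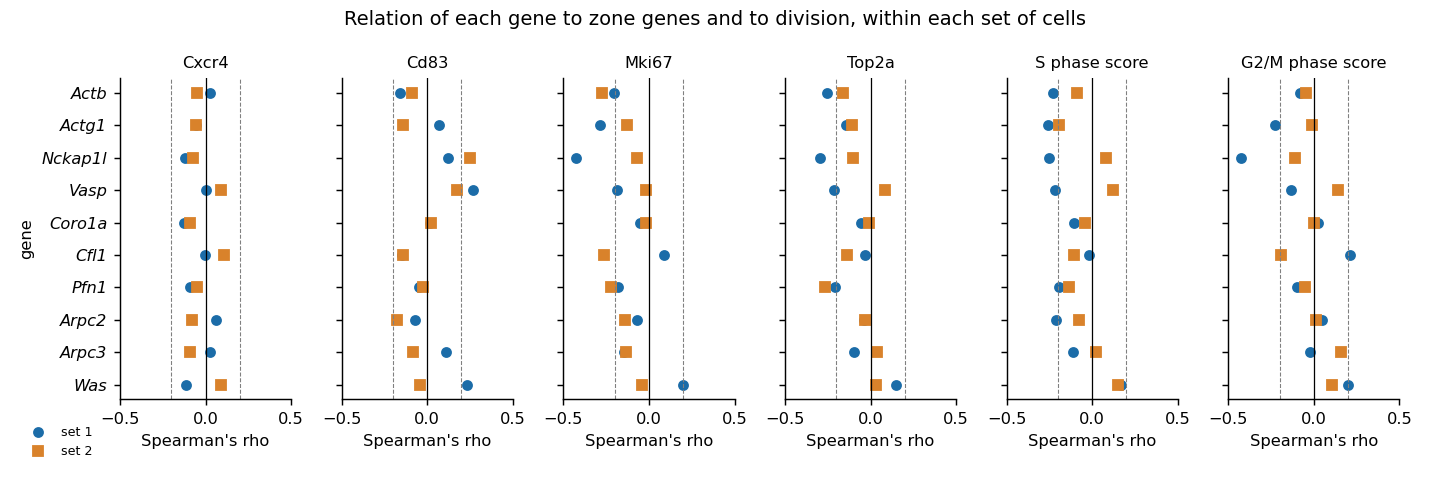
Spearman's rho of each of the 10 genes with Cxcr4, Cd83, Mki67, Top2a and the S phase and G2/M scores, within set 1 (circles, n = 96) and set 2 (squares, n = 86); dashed lines mark 0.2 in size. Actb with Mki67 and Pfn1 with Top2a are the only rows with both symbols beyond a dashed line, and Nckap1l lies far left in set 1 only for Mki67 and G2/M genes.

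The wider actin machinery was read from 11 lists with 99 genes in the table, of which 73 were found in 10% of cells or more. Of these 73 genes, 18 (24.7%) were counted with at least 1 member, 17 positively and 1 negatively, beside 15.5% of all genes. That background is not matched for share of cells. In over 50% of cells were 27 of the 73 genes, beside 645 of the 5409 genes found in 10% of cells or more, and the part of this was not tested. Actb accounted for 12 of the 17 and Pfn1 for 9, while Nckap1l, Vasp, Arpc3 and Was had 0. Tmsb4x and Arpc5 were each counted with 4 members, the same Actb, Actg1, Cfl1 and Pfn1. Tmsb4x encodes thymosin beta 4, which holds actin monomers in reserve, and was detected in all 182 cells. Its rho was 0.47 and 0.58 with Actb, 0.51 and 0.41 with Pfn1, 0.26 and 0.43 with Cfl1, and 0.27 and 0.36 with Actg1. By r, Tmsb4x with Actg1 was 0.18 and 0.21 and would not be counted. Tmsb4x was also opposed to Rn45s, at −0.42 and −0.43.

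Arpc5 had 0.43 and 0.25 with Actb and 0.35 and 0.27 with Pfn1. With genes above floor held constant it had 0.41 and 0.185 with Actb and 0.198 and 0.20 with Cfl1, and of its 4 relations those with Actg1 and Pfn1 were still counted. Actr2 was counted with 3 members and ran with Actb at 0.46 and 0.47 and with Actg1 at 0.33 in both sets, and against Rn45s at −0.45 and −0.51. Of the small GTPases, Rac2, the blood cell Rac that acts above WAVE, was detected in 142 cells against 46 for Rac1 and ran with Actb at 0.38 and 0.32. Cdc42, which activates WASP and was detected in 125 cells, had 0.29 and 0.21 with Actb, and 0.30 and 0.08 with genes above floor held constant, when it was not counted. Arhgdib, an inhibitor that holds small GTPases in the cytosol, was detected in 159 cells and had 0.36 and 0.37 with Actb and 0.40 and 0.36 with Pfn1.

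Myh9, the heavy chain of non-muscle myosin and detected in 178 cells, was the only gene of these lists counted as negative with members. Its rho was −0.23 and −0.31 with Cfl1 and −0.26 and −0.24 with Pfn1. With genes above floor held constant these were −0.10 and −0.26, and −0.11 and −0.15, so neither was then counted. The background was 0.146% of all gene pairs at −0.2 or less in both sets. Myh9 rose with Rn45s, at 0.22 and 0.20. Coro1a was counted with Abi1 (0.33 and 0.32), Hcls1, a cortactin-like protein of blood cells (0.22 and 0.23), and Capza1, a filament-capping subunit (0.22 and 0.21). By r these were 0.16 and 0.23, 0.16 and 0.18, and 0.08 and 0.17, so none of the 3 would be counted. The Ena/VASP and formin list had no gene counted with a member; Evl, the blood cell relative of Vasp, was detected in 55 cells. Of the SRF list, Mkl1 was detected in 27 cells and Srf in 26, and the rho of Actb was 0.02 and 0.22 with Srf and 0.07 and 0.04 with Mkl1.

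The genes most like each member were taken among 4629 genes found in 10% or more of the cells of each set, by the smaller rho of the 2 sets. Actb was closest to Fth1, the ferritin heavy chain (0.52 and 0.53), and so was Pfn1 (0.46 and 0.52), which was also close to the ribosomal protein gene Rps14 (0.49 and 0.46). Cfl1 was closest to Gm12191, a processed pseudogene by annotation (0.51 and 0.39), and then to Sh3bgrl3 (0.39 and 0.43). Among the genes near Actg1 were Actr2 (0.33 in both) and Hypk (0.29 and 0.31). Nckap1l was closest to Ppcs (0.25 and 0.28) and most opposed to Kif22, a mitotic motor gene (−0.24 in both), followed by Kif2a (−0.27 and −0.23) and Ccne2, a cyclin of S phase entry (−0.24 and −0.21).

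Vasp was closest to Il4i1, an amino acid oxidase gene induced in activated B cells (0.30 and 0.28), and to Vmp1 (0.25 and 0.36). Coro1a was closest to Abi1, as above, Was to a joint row for Zfp91 and Cntf (0.33 and 0.39), Arpc2 to Acsl5 (0.24 and 0.23) and Arpc3 to Echs1 (0.35 and 0.33). These are the extremes of a ranking over all those genes and are given as a description of these cells.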

How the data were processed

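RNA sequencing of 182 single cells was deposited as 1 table of a normalized signal per gene and cell. Per the submitters' processing notes, the tools were Cuffdiff (no version), Cufflinks 2.2 and TopHat2 2.0, with mm10. How the authors made the deposited signal (its starting unit, annotation and normalization) is not given in the sources. The values are not counts, so no count model was used and depth is unknown. The members and gene lists were chosen with earlier results of these data known. Detection was a value of at least 1, with exact Clopper-Pearson 95% intervals over cells. Spearman's rho across cells was computed within set 1 and set 2 for genes found in 10% of cells or more and counted at 0.2 or more in size and of 1 sign in both (scipy 1.17.1, pandas 2.3.3, numpy 2.4.6). Scores were mean z-scores of log2(value + 1). Partial rho held the number of genes above floor, or Rn45s, constant. The calculation was tested on simulated data. Pseudogene copies were sought with blastn 2.17.0 in GENCODE M21 transcripts. Named genes were all members, Cxcr4, Cd83, Mki67 and Top2a, up to 4 genes per list by share, list genes counted with at least 4 members, and up to 3 most like or most opposed genes per member. List genes named outside this rule were chosen after their values were seen. No doublet caller was run. Some genes that this rule names are not reported here.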

Additional observations from a re-analysis of the deposited data

How the results depend on the processing

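With 1 group of cells and no named animals, replicates could be neither compared nor left out, and the intervals cover counting error over cells only. No paired analysis was possible because the study has 1 group and no replicate numbers to pair. The 3 counted pairs became 1 with the number of genes above floor held constant, 1 at a size of 0.3, 1 with Rn45s held constant (chosen after seeing the data) and 7 without the cells holding markers of other types. Without the 2 cells of each set farthest in genes above floor, 2 pairs were counted. Actb with Actg1 was then lost, at 0.40 and 0.193. With Pearson's r the count was 3, 3 and 4 at pseudocounts of 1, 0.1 and 10, with 2 of the 3 pairs kept each time: Actb with Actg1 was lost, and Pfn1 with Was (negative), Actg1 with Cfl1 or Actb with Cfl1 entered. Actb with Pfn1 was counted under all alternatives run. The 0 members counted with Cxcr4 stayed 0 throughout, which a count at its lowest value cannot show to be stable, and the 0 with Cd83 became 1 (Nckap1l) with Pearson's r of log2(value + 10). The 0 with the S phase score became 2 (Actg1 and Pfn1) with genes above floor held constant. The 0 with the G2/M score became 1 with Pearson's r at pseudocounts of 1 and 10 (Nckap1l) and with genes above floor held constant (Pfn1). The 1 member with Mki67 became 0 with Pearson's r at each pseudocount (0.1, 1 and 10), without the marker cells, at a size of 0.3 and given Rn45s. The 1 with Top2a became 0 with Pearson's r at a pseudocount of 10, without the marker cells, at 0.3 and given Rn45s, and 2 with genes above floor held constant. The cause of these shifts was not tested. Shares of the less frequent members moved with the threshold: at a value of 5 Actg1 fell to 35.7% of cells and Vasp to 11.0%.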
